A study of Mus musculus with 12 samples.

Results

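The data described here were the 6 messenger RNA libraries of unheated mice in a series of 12, namely 3 libraries of brain (brain controls 1, 2 and 3) and 3 of liver (liver controls 1, 2 and 3). The members were taken by their labels, tissue and treatment, with no use of measured values. The mice were male C57BL6/J wild type animals of 24 months, and the control group was kept without the periodic heat stress (40 °C on 15 days) that the other 6 libraries of the series received. No allele or agent set the brain and liver libraries apart other than the tissue itself, although frozen brain and frozen liver were homogenized at different speeds, so that tissue and homogenization cannot be told apart. Each group held 3 animals per the methods of the study. The labels share replicate numbers between the tissues without saying that a number marks a single mouse, and the part of the brain that was cut for RNA was not given in the sources used here. The comparison asked which genes and which functions separate the aged brain from the aged liver before any heat exposure.

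As background, the liver is built mainly of hepatocytes, which secrete most plasma proteins, turn ammonia into urea, make bile acids, store glycogen and oxidize or export fat, and which share the organ with Kupffer cells (resident macrophages), sinusoidal endothelium and stellate cells. The brain is built of neurons, which signal through voltage-gated channels and chemical synapses, together with myelin-forming oligodendrocytes, astrocytes, microglia and a sealed endothelium known as the blood-brain barrier. Many metabolic steps exist in both organs but use different members of a gene family, known as isozymes. In bulk tissue, fewer cells of a type and less RNA per cell cannot be told apart.

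The deposited counts summed to between 11889432 and 14597197 per brain library and between 10466198 and 15609040 per liver library. A gene was called when its adjusted p-value was under 0.05 and its log2 fold change, given throughout as brain over liver, was past 1 in either direction. Fold changes carry their standard error (SE). Levels of different genes were compared as FPKM, which is the TMM-scaled CPM (counts scaled for library depth) divided by the summed exon length in kilobases, and sets of 3 values are given in the order of replicates 1, 2 and 3. The libraries carried the markers of their labelled tissue. Snap25, a protein of synaptic vesicle fusion, stood at 369.8, 275 and 263 FPKM in brain and 2.01, 0.0169 and 0.0786 in liver. Alb, the gene of serum albumin, stood at 0.917, 0.834 and 0.167 FPKM in brain and 59311, 30361 and 39455 in liver. The tissues did not overlap for either gene. Among the liver libraries, liver control 1 held the most Snap25.

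Liver control 1 stood apart from the other 2 liver libraries and is therefore described before the results. Of 648 genes called in brain with a log2 fold change over 6 and a mean of over 50 CPM in brain, the median gene reached 0.856% of its brain level in liver control 1, 0.0439% in liver control 2 and 0.118% in liver control 3 (0.364, 0.0216 and 0.0578% with library totals). The cut-off on the fold keeps out genes with a higher level in liver, so it limits these percentages. In the pan-neuronal list of 20 genes, not chosen by fold, the medians were 0.696, 0.0598 and 0.0985%. Liver control 1 also held skeletal muscle transcripts. Its muscle list of 30 genes took 0.0732% of all counts (exact binomial 95% interval 0.0719 to 0.0746%), against 0.00413% and 0.00369% in liver controls 2 and 3 and 0.0124 to 0.0156% in brain, and 29 of the 30 genes reached 10 counts there, against 5 and 3. The oxygen-binding muscle protein Mb had 1033, 4 and 0 counts in the liver libraries and the muscle creatine kinase Ckm had 918, 6 and 0. Intervals cover counting error only. In the opposite direction, the 490 genes called in liver with the same cut-offs had medians of 0.0184 to 0.0246% of their liver level in the 3 brain libraries. Among called genes, Scn4b, a sodium channel subunit, and the glial Apod moved furthest away from liver once this library was left out, each found in liver in this library alone (52, 0 and 0 counts for Scn4b, 101, 0 and 0 for Apod). The muscle gene Mylpf (452, 14 and 7 counts in liver) moved from -4.29 ± 1.42 to -0.61 and Ankrd23 from -1.95 ± 0.66 to -0.50, and both lost their call, as they did with the replicate number in the model (adjusted p = 0.0807 and 0.0588). Mup4, with 60, 31005 and 1134 counts in liver and 0 in brain, lost its call too (adjusted p = 0.106). Its folds, -17.05 ± 4.13 with all libraries and -17.72 without this one, are fitted over 0 counts in brain and are not exact. What placed brain and muscle RNA in liver control 1 was not tested.

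**Figure D1:**
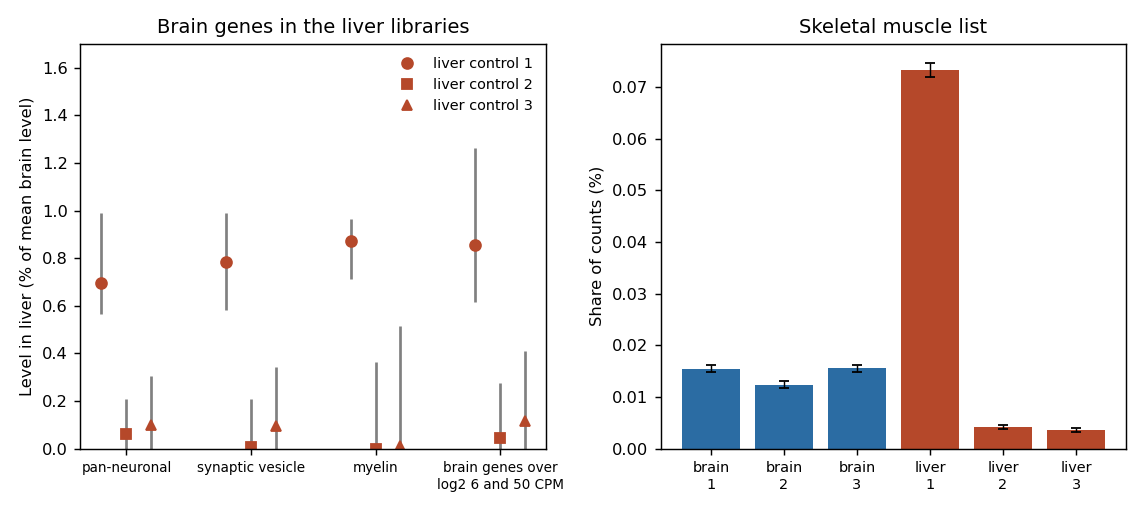
Left, median level (symbols) and quartiles (lines) of brain genes in each liver library, as a percentage of the mean level in brain, for 3 marker lists and for 648 genes called in brain. Right, share of all counts held by the skeletal muscle list in each library, with exact binomial 95% intervals. Liver control 1 sat above liver controls 2 and 3 in each list on the left and held 0.0732% muscle counts on the right.

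Brain and liver differed in most of what was measured. Of 15213 genes tested, 5581 (36.7%) were higher in brain and 4227 (27.8%) higher in liver, 9808 (64.5%) in all by edgeR's quasi-likelihood test, and the brain and liver libraries did not overlap for 12411 genes (81.6%). The first principal component of the 500 most variable genes held 98.4% of the variance and separated the tissues, while liver control 1 lay apart on the second. Differences were large on both sides. A log2 fold change past 6 was found for 1811 genes higher in brain and 711 higher in liver, and the median called gene differed by 3.91 in brain and by -2.34 in liver. Among the called genes 549 had no count in any liver library and 199 had none in any brain library. Of the genes called in brain, 1534 had 3 counts or fewer in each liver library, and 469 called in liver had as few in each brain library. The folds of these genes are set largely by the fit. On average 3 counts stood for 0.352 CPM in liver and 0.162 CPM in brain, so the sizes on the 2 sides are not exactly comparable. Without liver control 1, 6053 genes were higher in brain and 4232 in liver of 15626 tested (65.8% called), with 5471 and 4036 of the calls kept and 0 reversed, and 1253 of the 5581 genes called in brain had no count in liver controls 2 and 3. The fold of 1121 of these 5581 genes rose by over 1 on the log2 scale, against 5 genes called in liver that moved so far, and among the 5581 the median became 4.09 and 2053 lay past 6. For the 1253 genes with no count in liver controls 2 and 3, such a fold is set by the fit and is not a bound. Leaving out a liver library cannot empty the brain side, so the 1121 and the 5 are not alike in kind.

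The liver transcriptome was concentrated on fewer genes. The most abundant genes that together made up 50% of all counts numbered 165, 197 and 176 in the liver libraries and 1125, 1001 and 1196 in the brain libraries. Alb alone took 8.61, 5.11 and 6.61% of the liver counts. The 100 most abundant genes took 41.7 to 44.0% of the counts in liver and 16.4 to 20.6% in brain, with no overlap. More genes reached 10 counts in brain (14793 to 14949) than in liver (11955 to 12649). The most abundant genes called in brain were of other kinds. Cst3, a protease inhibitor of glia, stood at 657, 1084 and 732 FPKM in brain and 234, 193 and 166 in liver, a log2 fold change of 2.06 ± 0.28, Sparcl1, a matrix protein of astrocytes, at 551, 519 and 463 FPKM in brain and 7.25, 2.12 and 3.09 in liver (6.94 ± 0.51) and Kif5a, a motor of axonal transport, at 457, 588 and 484 FPKM in brain and 3.07, 0.592 and 0.783 in liver (8.41 ± 0.72). The calmodulin gene Calm2 (2.47 ± 0.24) and the selenoprotein Selenow (1.55 ± 0.24) were abundant in liver too. The concentration in liver bears on the scale of every fold change: with library totals in place of TMM the median of all genes moved from 0.20 to 1.30, and 8449 genes were then higher in brain and 2344 in liver, so that 78.3% of the calls lay on the brain side in place of 56.9%. Among the genes that the naming rules gave, 26 lost and 16 gained a call on that scale, apart from those that changed sign. Examples are given below, though not all of them, and Ankrd23 and Mylpf above also lost their calls.

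**Figure D2:**
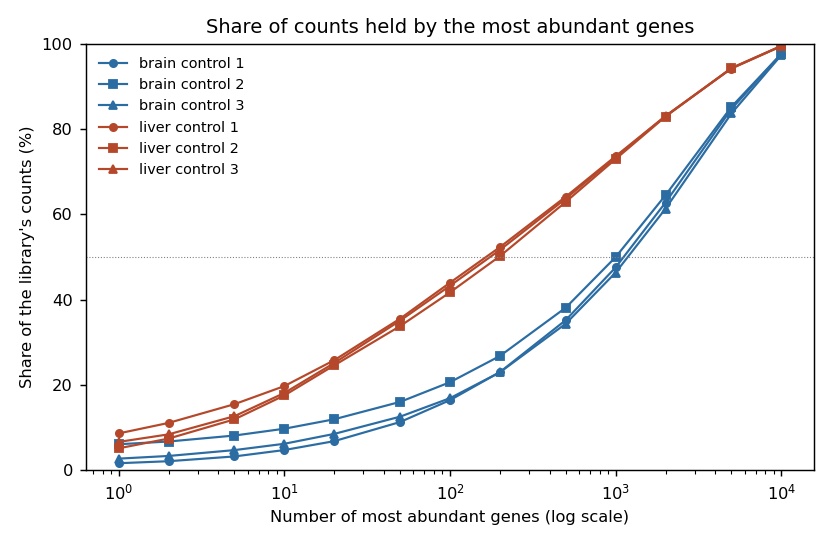
Cumulative share of counts (%) against the number of most abundant genes (log scale), 1 line per library. The 3 liver lines reach 50% at 165 to 197 genes and the 3 brain lines at 1001 to 1196 genes (dotted line).

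To describe functions, 41 gene lists were used, of which 14 named genes of brain and 15 genes of liver. Of 281 genes in the brain lists 272 passed the filter on low counts, and 239 of them were higher in brain, 14 higher in liver and 19 not called. Of 314 genes in the liver lists 302 passed, and 280 were higher in liver, 13 higher in brain and 9 not called. Read against the background of 36.7% and 27.8%, these shares describe how closely the lists follow their textbook tissue in this comparison. The exceptions are named below, list by list. Without liver control 1, the number of members higher in brain changed from 21 to 18 for neuropeptides and granule proteins, from 21 to 16 for brain regions, from 9 to 8 for choroid plexus and from 2 to 4 for stellate cell and bile duct genes. The number higher in liver changed from 10 to 11 for Kupffer cell genes, from 21 to 20 for apolipoproteins, from 4 to 3 for astrocyte genes, from 0 to 1 for brain transcription factors, from 2 to 1 for brain regions, from 10 to 9 for reference genes, from 17 to 16 for the proteasome, from 22 to 20 for the respiratory chain and from 17 to 18 for the list described last. Because many members had 3 counts or fewer in the other tissue, such members were set to the fold allowed by 3 counts per library, a lower bound for that member, before the median of a list was taken, and a median that this moved is marked as given at the bound. For single genes with so few counts in the other tissue, a log2 fold change printed with its SE is the fitted value and is not exact.

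**Figure D3:**
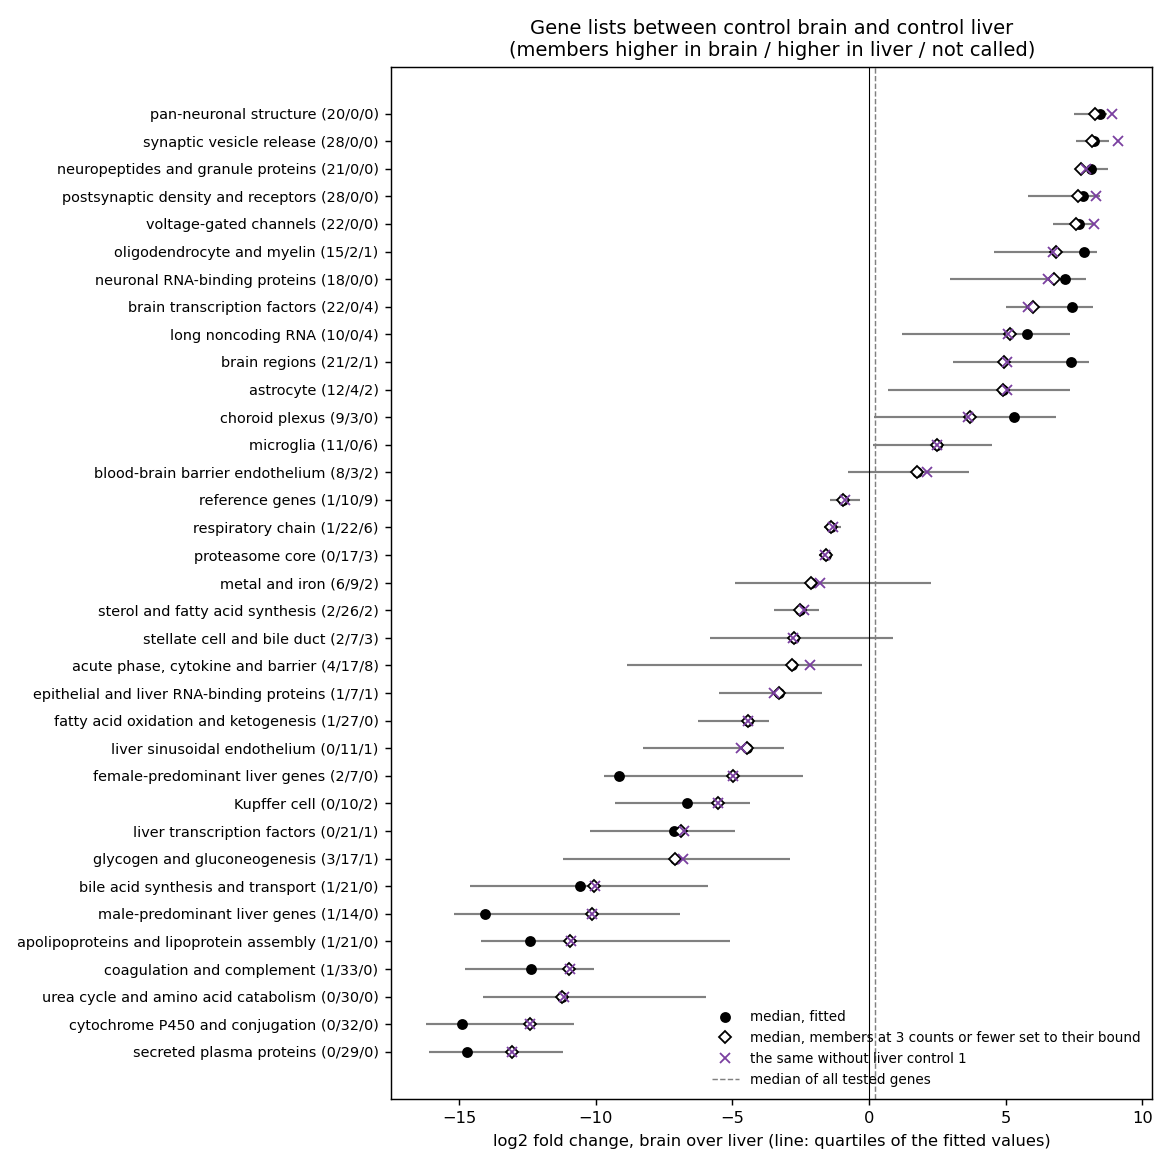
Median log2 fold change (brain over liver) of each gene list, with the quartiles of the fitted values (lines), the median with members at 3 counts or fewer set to their bound (diamonds) and the same without liver control 1 (crosses). Numbers in parentheses count the members higher in brain, higher in liver and not called. The medians run from -13.08 for secreted plasma proteins to 8.25 for pan-neuronal structure at their bounds.

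Secreted plasma proteins took the largest share of liver counts among the liver lists. All 29 members were higher in liver (median -13.08 at the bound), and together they took 17.6, 12.1 and 15.6% of the liver counts against 0.164 to 0.331% in brain. The exact two-sided permutation test of these shares gave p = 0.1, the smallest value that 3 against 3 libraries allow, and an exact sign flip of the 3 differences paired by replicate number gave p = 0.25, the smallest that 3 pairs allow, so neither could reach 0.05. Alb differed by a log2 fold change of -16.02 ± 0.89 (adjusted p = 2.46e-07). Gc, the vitamin D carrier, stood at 0.0759, 0.16 and 0 FPKM in brain and 5682, 4510 and 5939 in liver, a log2 fold change of -16.00 ± 0.70, and Serpina3k, a protease inhibitor of plasma, at 0.159, 0.0863 and 0.0542 FPKM in brain and 6778, 6040 and 8402 in liver, a log2 fold change of -16.01 ± 0.55. Brain FPKM of these genes were under 1 in each library. Ttr, the thyroxine carrier that choroid plexus also makes, was the abundant exception in size, at 831, 663 and 1350 FPKM in brain and 10973, 8609 and 7236 in liver and a log2 fold change of -3.24 ± 0.36. Major urinary proteins, pheromone carriers of male mouse liver, were among the most abundant liver genes. Mup3 stood at 0.131, 0.111 and 0.0522 FPKM in brain and 11352, 21146 and 23225 in liver, and Mup13 had 0 counts in each brain library and 125514, 276188 and 91785 in liver, at least 117549-fold higher in liver. Liver control 1 was the lowest liver library for Mup3, and the Mup copies are near-identical, so reads may be split between them.

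The promoters of 4 secreted-protein genes, Alb, Gc and the fibrinogen chains Fga and Fgb, are shown as examples of genes transcribed almost solely in liver here, and were chosen with their values known. Each window runs from 250 bases before to 50 after the RefSeq start (GRCm38.p6). Capitals mark each CG and the 6-letter string GTTAAT on either strand (ATTAAC is its reverse complement). They lie at chr5:90460620-90460919 (Alb, plus strand), chr5:89457849-89458148 (Gc, minus strand), chr3:83025903-83026202 (Fga, plus strand) and chr3:83049814-83050113 (Fgb, minus strand).
Alb: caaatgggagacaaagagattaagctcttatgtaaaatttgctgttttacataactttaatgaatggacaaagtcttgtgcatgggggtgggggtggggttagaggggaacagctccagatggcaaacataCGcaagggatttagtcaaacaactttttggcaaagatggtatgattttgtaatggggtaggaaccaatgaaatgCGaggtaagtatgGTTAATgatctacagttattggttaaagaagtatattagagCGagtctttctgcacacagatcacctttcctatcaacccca
Gc: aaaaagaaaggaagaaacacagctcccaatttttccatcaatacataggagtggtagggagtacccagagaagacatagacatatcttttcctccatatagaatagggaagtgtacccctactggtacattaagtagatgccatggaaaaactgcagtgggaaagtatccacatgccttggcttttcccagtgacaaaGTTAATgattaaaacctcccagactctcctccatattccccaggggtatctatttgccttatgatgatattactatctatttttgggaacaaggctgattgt
Fga: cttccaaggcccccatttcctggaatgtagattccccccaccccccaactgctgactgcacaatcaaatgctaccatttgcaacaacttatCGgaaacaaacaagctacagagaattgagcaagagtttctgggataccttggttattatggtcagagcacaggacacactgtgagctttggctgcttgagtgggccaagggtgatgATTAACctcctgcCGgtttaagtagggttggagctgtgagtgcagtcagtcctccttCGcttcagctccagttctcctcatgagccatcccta
Fgb: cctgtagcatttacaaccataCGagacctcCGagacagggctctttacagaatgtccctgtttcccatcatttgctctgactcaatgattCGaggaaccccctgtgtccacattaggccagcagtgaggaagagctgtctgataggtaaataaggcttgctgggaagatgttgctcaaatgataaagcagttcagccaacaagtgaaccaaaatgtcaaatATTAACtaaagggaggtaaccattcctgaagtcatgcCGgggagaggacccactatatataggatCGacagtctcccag
GTTAAT began 32, 52, 43 and 29 bases before the start of Alb, Gc, Fga and Fgb, and these windows held 3, 0, 3 and 5 CG. Over 27025 RefSeq promoter windows, 7.20% held GTTAAT on either strand, the median number of CG was 7 (quartiles 3 and 21) and 43.6% held 5 or fewer. A match describes letters and not a bound site. These 4 genes were picked by hand, so their matches and CG numbers do not measure how common either is among liver genes.

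Coagulation and complement genes were higher in liver for 33 of 34 members (median -10.99 at the bound). The 3 fibrinogen chains, which polymerize into the clot, had the highest levels. Fgg stood at 0.0223, 0.0283 and 0.0266 FPKM in brain and 2145, 1607 and 1937 in liver, a log2 fold change of -15.95 ± 0.46 (adjusted p = 4.94e-08), Fga differed by -16.90 ± 0.79 and Fgb by -15.25 ± 0.70. Prothrombin (F2) differed by -15.05 ± 0.70 and complement C3 by -10.91 ± 0.49. F3, tissue factor, which starts clotting from the surface of cells outside the vessel, was the exception, at 14.1, 15.2 and 13.7 FPKM in brain and 2.41, 3.00 and 3.54 in liver and a log2 fold change of 2.27 ± 0.20. Apolipoproteins and lipoprotein assembly genes were higher in liver for 21 of 22 members (median -10.93 at the bound). Apoa2 and Apoa1, the main proteins of high-density lipoprotein, differed by -14.40 ± 0.64 and -14.31 ± 0.50, and Apob, the scaffold of very-low-density lipoprotein, by -15.81 ± 0.51. Apoe, which both hepatocytes and astrocytes make, was high in both tissues, at 566, 701 and 552 FPKM in brain and 16171, 7065 and 8965 in liver. It was higher in liver by a log2 fold change of -4.15 ± 0.40 without overlap. Apod, a lipocalin of glia, was the exception. Its counts were 4113, 3436 and 4994 in brain and 101, 0 and 0 in liver, so that in liver it was found in liver control 1 alone. Against liver controls 2 and 3, both at 0, it was at least 602-fold higher in brain.

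Metabolic liver functions followed the same direction. All 30 tested genes of the urea cycle and amino acid catabolism were higher in liver (median -11.23). The ureagenesis enzymes Cps1 and Otc differed by -13.83 ± 0.47 and -15.25 ± 0.49. Cps1 stood at 0.0588, 0.0746 and 0.0301 FPKM in brain and 952, 702 and 798 in liver. Gnmt, which disposes of excess methyl groups, was the most abundant member at 0.426, 0.589 and 0.971 FPKM in brain and 3059, 2407 and 2283 in liver. Ass1, argininosuccinate synthase, was listed with only 21, 20 and 11 counts in liver and 5, 1 and 0 in brain (log2 fold change -4.13 ± 0.64), far below Cps1 per length, and the cause was not tested. Fatty acid oxidation and ketogenesis genes were higher in liver for 27 of 28 members (median -4.42), led by Fabp1, the liver fatty acid-binding protein. Its log2 fold change of -17.84 ± 0.71 is a fitted value over 2, 0 and 0 counts in brain and is not exact. Other members higher in liver included Cpt1a, which admits fatty acids to mitochondria (-3.57 ± 0.20), and Acaa2 (-6.04 ± 0.36). Oxct1, the enzyme that lets cells use ketone bodies, was the exception at 60.0, 63.4 and 54.8 FPKM in brain and 3.88, 1.46 and 2.13 in liver, a log2 fold change of 4.57 ± 0.35.

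Drug and steroid metabolism showed the largest median among metabolic lists. All 32 cytochrome P450 and conjugation genes were higher in liver (median -12.43 at the bound), and 9 of them had no count in brain. Cyp2e1, which oxidizes ethanol, stood at 0.606, 0.302 and 0.155 FPKM in brain and 4743, 3697 and 3674 in liver, a log2 fold change of -13.43 ± 0.61 (adjusted p = 1.08e-07). Cyp3a11 differed by -16.26 ± 0.72 and the carboxylesterase Ces1c by -15.75 ± 0.54. Bile acid synthesis and transport genes were higher in liver for 21 of 22 members (median -10.05 at the bound). Cyp7a1, the rate-limiting enzyme of bile acid synthesis, had 1338, 1279 and 1277 counts in liver and 0 in brain, at least 940.2-fold higher in liver. Cyp8b1 and the bile acid importer Slc10a1 were likewise at 0 in brain and at least 1622-fold and 4542-fold higher in liver. The exception was Cyp46a1, the neuronal cholesterol 24-hydroxylase, at 38.2, 26.7 and 29.8 FPKM in brain and 2.99, 1.19 and 1.83 in liver and a log2 fold change of 3.97 ± 0.33.

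Glucose and lipid synthesis were less one-sided. Of 21 tested genes of glycogen and gluconeogenesis, 17 were higher in liver, 3 in brain and 1 was not called (median -7.10). Pck1, which commits carbon to glucose synthesis, differed by -14.41 ± 0.49, and G6pc, which releases free glucose, had 6981, 7228 and 9495 counts in liver and 0 in brain, at least 5817-fold higher. The brain-side members were the brain glycogen phosphorylase Pygb (4.92 ± 0.28), glycogen synthase Gys1 (2.02 ± 0.43) and the mitochondrial Pck2 (1.65 ± 0.19). Sterol and fatty acid synthesis genes were higher in liver for 26 of 30 members (median -2.52), led by the desaturase Scd1 at 52.9, 68.3 and 71.8 FPKM in brain and 3195, 2031 and 3447 in liver. Scd2, its brain counterpart (6.74 ± 0.45), and Srebf2, a regulator of cholesterol synthesis (1.56 ± 0.34), were higher in brain. Transcription factors of hepatocytes were higher in liver for 21 of 22 members (median -6.90 at the bound). Hnf4a had 7250, 4118 and 3104 counts in liver and 0 in brain, at least 3377-fold higher, the bile acid receptor Nr1h4 differed by -10.22 ± 0.36 and Cebpa by -6.08 ± 0.35. Esrra was not called (-0.30 ± 0.22).

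Sex-biased liver genes varied within the liver group. Male-predominant genes were higher in liver for 14 of 15 members, with Susd4 (1.00 ± 0.23) on the brain side, a call lost without brain control 1 or liver controls 2 or 3 (0.86 to 0.95), and took 1.24, 2.25 and 2.49% of the liver counts. Of 14 female-predominant genes 9 passed the filter, 7 higher in liver and 2 in brain (Cux2 at 7.63 ± 0.46 and Prom1 at 1.88 ± 0.34). Among them Cyp2b9 had 1231, 295 and 209 counts in liver and Cyp17a1 538, 109 and 115, with 0 in brain. Liver control 1 was thus the lowest liver library for the share of the male list and the highest for these 2 genes. Mup3, a member of the male list, had 117327, 196317 and 185836 counts in liver, most of that share. The size of the difference in share thus rests largely on a gene whose reads may be split between copies. The cause was not tested.

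In brain, the tested members of the neuronal lists were higher in brain without exception when all 6 libraries were used. All 20 pan-neuronal genes (median 8.25 at the bound), 28 synaptic vesicle genes (8.17), 28 postsynaptic genes (7.64), 22 voltage-gated channels (7.59) and 21 tested neuropeptide and granule genes (7.75) were higher in brain. These medians rose to 8.90, 9.10, 8.31, 8.22 and 7.94 without liver control 1, at their bounds. Without that library the peptide genes Avp, Pmch and Trh lost their call (adjusted p = 0.225, 0.0559 and 0.113 by the quasi-likelihood test), while their fitted folds did not shrink. Avp had 0 counts in each liver library, and Pmch and Trh had 4 and 1 counts in liver control 1 and 0 in the other 2. Folds over 0 counts are set by the fit, so they say nothing on stability here. All members of these lists passed the filter other than Oxt and Hcrt, which had at most 456 and 46 counts in a library. The most abundant granule protein was Cpe, a peptide-processing enzyme, at 591, 652 and 567 FPKM in brain and 4.32, 0.22 and 0.563 in liver (log2 fold change 8.43 ± 0.95, adjusted p = 2.57e-05). The calcium-dependent kinase Camk2a stood at 328, 343 and 196 FPKM in brain and 1.16, 0 and 0.0179 in liver (9.46 ± 1.37), and Nrgn, a calmodulin-binding protein of dendritic spines, at 681, 411 and 312 FPKM in brain and 2.42, 0.158 and 0.276 in liver (8.86 ± 0.81). Liver control 1 was the highest liver library for all 3, and without it the difference of Cpe became 10.62, while Nrgn had 34, 2 and 3 and Camk2a 84, 0 and 1 counts in liver, too few for a stable value without that library.

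Transmitter systems are read from the transporters and enzymes that define them. The glutamate vesicle transporter Slc17a7 stood at 165, 102 and 87.3 FPKM in brain and 0.901, 0.0213 and 0.0495 in liver and Slc17a6, used in subcortical neurons, at 4.69, 8.20 and 17.2 FPKM in brain and 0.134, 0 and 0 in liver. The GABA vesicle transporter Slc32a1 had counts of 1364, 987 and 1061 in brain and 1, 0 and 0 in liver and was at least 162-fold higher in brain than in liver controls 2 and 3. Gad1 and Gad2, the GABA-making enzymes, differed by 8.28 ± 0.69 and 8.15 ± 0.68. Among receptors, Gria2, the AMPA receptor subunit that limits calcium entry, had counts of 8104, 5962 and 5819 in brain and 32, 0 and 0 in liver, and Grin1, the obligatory NMDA receptor subunit, 7603, 3352 and 4535 in brain and 15, 0 and 1 in liver. The channel Kcna1 was at 0 in liver controls 2 and 3 and at least 432-fold higher in brain. Kcnab2, a potassium channel subunit, stood at 70.4, 64.2 and 56.9 FPKM in brain and 0.371, 0.165 and 0.0239 in liver (8.33 ± 0.53).

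The promoters of 4 neuronal genes, Nrgn, Gria2, Grin1 and the vesicle phosphoprotein Syn1, are shown as the counterpart of the liver set, with the same marks, and were likewise chosen with their values known. They lie at chr9:37552696-37552995 (Nrgn), chr3:80802786-80803085 (Gria2), chr2:25319138-25319437 (Grin1) and chrX:20920869-20921168 (Syn1) of GRCm38.p6, all on the minus strand.
Nrgn: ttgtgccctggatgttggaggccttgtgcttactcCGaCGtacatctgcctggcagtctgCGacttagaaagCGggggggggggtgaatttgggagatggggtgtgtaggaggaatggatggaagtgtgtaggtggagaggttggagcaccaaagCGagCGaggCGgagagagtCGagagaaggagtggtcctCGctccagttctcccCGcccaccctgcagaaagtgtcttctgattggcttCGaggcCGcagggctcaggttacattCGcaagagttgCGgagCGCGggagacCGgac
Gria2: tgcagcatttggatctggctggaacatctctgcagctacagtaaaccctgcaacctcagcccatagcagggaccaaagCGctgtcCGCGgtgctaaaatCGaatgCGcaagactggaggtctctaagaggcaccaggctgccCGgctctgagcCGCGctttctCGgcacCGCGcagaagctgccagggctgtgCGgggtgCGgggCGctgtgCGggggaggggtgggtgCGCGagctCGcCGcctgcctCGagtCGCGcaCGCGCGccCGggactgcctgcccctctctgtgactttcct
Grin1: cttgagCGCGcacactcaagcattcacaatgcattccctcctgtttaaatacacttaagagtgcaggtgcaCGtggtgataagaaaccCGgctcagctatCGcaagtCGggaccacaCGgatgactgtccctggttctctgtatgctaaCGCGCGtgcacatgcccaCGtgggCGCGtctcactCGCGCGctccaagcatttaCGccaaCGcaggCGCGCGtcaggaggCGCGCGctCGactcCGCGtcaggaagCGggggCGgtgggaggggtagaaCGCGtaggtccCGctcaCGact
Syn1: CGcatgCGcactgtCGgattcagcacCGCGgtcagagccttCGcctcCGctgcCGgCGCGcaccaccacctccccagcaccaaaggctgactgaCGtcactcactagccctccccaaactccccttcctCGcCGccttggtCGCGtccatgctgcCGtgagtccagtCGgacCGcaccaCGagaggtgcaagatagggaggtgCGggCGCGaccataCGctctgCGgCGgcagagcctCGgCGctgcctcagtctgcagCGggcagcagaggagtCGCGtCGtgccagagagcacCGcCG
These windows held 17, 26, 33 and 33 CG, a number of 17 or more being found in 31.9% of all 27025 windows, and none of the 4 held GTTAAT. Composition was not compared between whole lists, since 64 of 85 tested plasma, coagulation and apolipoprotein genes and 47 of 76 tested neuronal, vesicle and postsynaptic genes had a window, under the 80% needed, so such a check would be void. The contrast between the hand-picked liver and neuronal sets is therefore no result about liver and neuronal genes at large.

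Regulators of neurons were higher in brain as well. Of 26 brain transcription factors, 22 were higher in brain and 4 not called (median 6.01 at the bound). Cortical factors Neurod6, Neurod2 and Tbr1 had 0 counts in liver controls 2 and 3 and were at least 113-fold, 103-fold and 157-fold higher in brain than there. The activity-induced gene Egr3 differed by 8.07 ± 0.53. Egr1 and Nr4a1, also induced by activity, were not called. Egr1 stood at 50.7, 27.7 and 39.3 FPKM in brain and 3.48, 56.3 and 144 in liver, the liver values spanning a wider range than the brain values, and without liver control 1 it was higher in liver (-1.35). All 18 neuronal RNA-binding proteins were higher in brain (median 6.75 at the bound), led by the splicing factors Rbfox1 at 48.8, 38.9 and 32.9 FPKM in brain and 0.399, 0 and 0.0303 in liver and Celf4 at 33.5, 40.7 and 29.0 FPKM in brain and 0.277, 0.134 and 0.0622 in liver. Of 9 tested epithelial and liver RNA-binding proteins, 7 were higher in liver, including A1cf of apolipoprotein B editing (-11.81 ± 0.42), and Tia1 was higher in brain (1.94 ± 0.20). Long noncoding RNAs were higher in brain for 10 of 14 tested, with Meg3 at 131, 101 and 200.5 FPKM in brain and 1.84, 0.35 and 0.332 in liver and Snhg11 at 174, 122 and 230.3 FPKM in brain and 8.43, 8.52 and 10.9 in liver, while Malat1, Neat1, Gas5 and Snhg1 were not called. Malat1 stood at 158, 138 and 195 FPKM in brain and 84.5, 122 and 184 in liver, and was higher in brain with library totals (1.41). Genes higher in brain spanned a median of 35212 bases in the annotation against 17207 for genes higher in liver and 24854 for all tested, and 25.0%, 7.30% and 15.2% of them spanned over 100 kilobases.

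**Figure D4:**
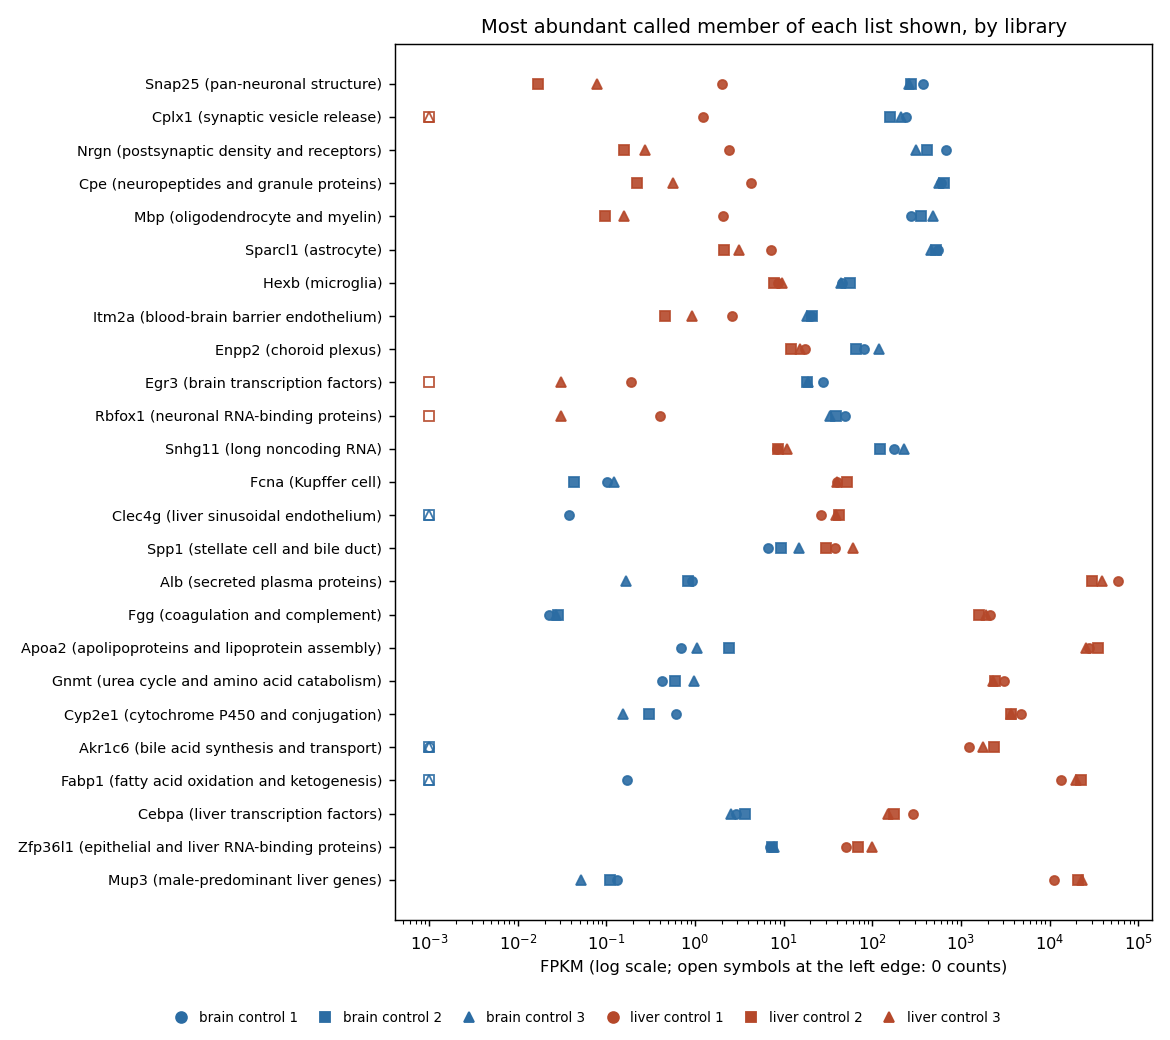
FPKM (log scale) in each library of the most abundant member, called on the side of its list, of each brain or liver list shown. Circles, squares and triangles are replicates 1, 2 and 3, blue for brain and red for liver, and open symbols at the left edge mark 0 counts. Brain and liver did not overlap for any of the genes, and liver control 1 lay closest to brain for the neuronal genes, as for Snap25.

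Most glial genes were higher in brain, and a few that hepatocytes are also known to use were higher in liver. Of 18 oligodendrocyte and myelin genes, 15 were higher in brain (median of the list 6.83 at the bound). The myelin protein Mbp was highest in brain control 3, at 272, 358 and 489 FPKM in brain and 2.07, 0.0951 and 0.158 in liver. Trf, the iron carrier of plasma (-5.83 ± 0.38), and Qdpr, which recycles tetrahydrobiopterin (-2.39 ± 0.24), were higher in liver, and Aspa was not called, although it was higher in brain with library totals. Of 18 astrocyte genes, 12 were higher in brain, among them Slc1a3 (8.60 ± 0.50), Gfap (7.47 ± 0.43) and Aqp4 (4.51 ± 0.28). Apoe, Clu, Ndrg2 and Aldh1l1 were higher in liver. Aldh1l1, a folate enzyme used to mark astrocytes, stood at 12.8, 10.9 and 9.70 FPKM in brain and 551, 267 and 265 in liver. Clu, which differed by -1.26 ± 0.32, was not past 1 without liver control 1 (-0.85) or with library totals (-0.13), and Ndrg2 was not past 1 with library totals (-0.45). Glul, the ammonia-fixing glutamine synthetase of astrocytes and perivenous hepatocytes, was high in both tissues at 466, 508 and 418 FPKM in brain and 315, 312 and 251 in liver and was not called (0.67 ± 0.23), although it was higher in brain with library totals (1.76).

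Macrophage genes split by population. Of 17 microglial genes, 11 were higher in brain and 6 not called (median 2.50). The microglial receptors P2ry12 (4.80 ± 0.31) and Cx3cr1 (5.09 ± 0.30) and Tmem119 (4.51 ± 0.39) were higher in brain. The complement genes C1qa, C1qb and C1qc were not called, and C1qa stood at 35.8, 45.3 and 35.2 FPKM in brain and 40.4, 47.3 and 44.3 in liver with the tissues overlapping. With library totals C1qb (1.31) and C1qc (1.03) were higher in brain. The C1qa difference of -0.18 ± 0.18 had a 95% interval of -0.58 to 0.21. Of 12 Kupffer cell genes, 10 were higher in liver (median -5.54 at the bound). Clec4f, a Kupffer cell lectin, had 733, 723 and 785 counts in liver and 0 in brain, at least 544-fold higher, and Cd5l differed by -10.78 ± 0.54.

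Genes of vessels and border cells also split. Of 12 tested sinusoidal endothelial genes, 11 were higher in liver, led by Clec4g at 0.0379, 0 and 0 FPKM in brain and 26.4, 42.0 and 38.4 in liver, and Ehd3 was not called. Of 13 blood-brain barrier genes, 8 were higher in brain, 3 in liver and 2 not called (median 1.77). The glucose transporter Slc2a1 was higher in brain (2.02 ± 0.28). The transporters Mfsd2a (-2.76 ± 0.32), Slco1a4 (-1.62 ± 0.20) and Abcg2 (-3.54 ± 0.18) were higher in liver, and the tight junction gene Cldn5 was not called at 19.4, 12.7 and 13.2 FPKM in brain and 9.34, 10.2 and 9.61 in liver, although the tissues did not overlap and library totals placed it higher in brain (1.74). Slco1a4 was not past 1 with library totals (-0.51). Of 12 tested stellate cell and bile duct genes, 7 were higher in liver, including Lrat, which stores vitamin A (-7.47 ± 0.40), and Sox9 (2.61 ± 0.21) and Cftr were higher in brain. Cftr had 14, 18 and 28 counts in brain and 0 in liver, at least 3.11-fold higher in brain. Col1a1 (1.01 ± 0.47) and Pdgfrb (0.85 ± 0.34), a collagen and a receptor of matrix-forming cells, were not called but were higher in brain without liver control 1 and with library totals. Of 12 choroid plexus genes, 9 were higher in brain, and Ttr, Aqp1 (-3.99 ± 0.33) and Prlr (-3.47 ± 0.41) were higher in liver.

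Markers of brain regions were compared as well, though a call against liver does not by itself show that a region was cut. Of 32 such genes, 24 passed the filter, 21 higher in brain, 2 in liver (Car8 at -3.97 ± 0.22 and Cbln3 at -1.20 ± 0.46) and 1 not called. Without liver control 1, 16 were higher in brain and 1 in liver, the lost calls being Avp, Pmch, Prkcd, Slc6a3 and Th in brain and Cbln3 in liver. None of these 5 brain folds shrank, Prkcd moving from 2.46 ± 0.84 to 2.53, and Cbln3 moved to -1.01. Avp and Pmch had 0 counts in liver controls 2 and 3, so their fitted folds say nothing on stability. Some cerebellar genes were near 0 in brain, with 1, 3 and 1 counts of the granule cell receptor Gabra6, 2, 5 and 2 of the Purkinje cell gene Pcp2 and 6, 10 and 16 of Cbln3. Brain counts of Cbln1 and Car8, also listed for cerebellum, are not given here. The brain libraries also differed among themselves. The hypothalamic peptides Avp (17, 618 and 91 counts) and Oxt (6, 456 and 62) were highest in brain control 2. The dopamine transporter Slc6a3 (21, 13 and 468), Th, which makes dopamine (61, 57 and 342), and Prkcd, a gene of thalamus (400, 302 and 2703), were highest in brain control 3. These genes were singled out after their values were seen. The folds of Slc6a3, Th and Prkcd rest largely on brain control 3, and their values without it are not given here. Avp, with 0 counts in liver, was at least 40.2-fold higher in brain over the 6 libraries (adjusted p = 0.0296 by the quasi-likelihood test) and at least 8.34-fold without brain control 2, with adjusted p from 0.00617 to 0.225 over the 6 omissions of 1 library and the call lost without brain controls 1 or 3 or liver controls 1 or 2. Cbln3 kept its call only without brain control 3 (adjusted p from 0.0208 to 0.142) and lost it with the replicate number in the model (adjusted p = 0.0641) and with library totals (-0.10). Different cuts of brain cannot be told apart from differences between mice.

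Isozyme pairs showed the exchange of family members most directly. In 17 of 30 pairs the brain member was called in brain and its partner in liver, and in 26 pairs the brain member held over 50% of the summed FPKM in brain and under 50% in liver. In glycogen breakdown, the phosphorylase Pygb held 98.1 ± 0.452% of Pygb plus Pygl in brain and 1.18 ± 0.21% in liver (mean ± SD, n = 3 libraries each). The glycogen synthase Gys1 held 98.9 ± 0.559% of Gys1 plus Gys2 in brain and 1.10 ± 0.509% in liver. The glucose transporter Slc2a3 held 0.205 ± 0.114% in liver against Slc2a2, and the pyruvate kinase Pkm 6.11 ± 1.74% against Pklr. The lactate dehydrogenase Ldhb held 82.6 ± 2.04% in brain and 1.82 ± 1.64% in liver, where Ldha predominated, and 0.89% as the mean of liver controls 2 and 3.

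Other pairs exchanged in part. The desaturase Scd2 held 80.7 ± 1.62% in brain against Scd1, and the neuronal translation factor Eef1a2 held 32.1 ± 7.57% in brain, where Eef1a1 remained the larger partner. In several pairs the partner assigned to liver was not called, as for Eno1 (-0.03 ± 0.48), Dnm2 (-0.12 ± 0.30) and Elavl1 (0.20 ± 0.16), beside the brain members Eno2 (8.90 ± 0.92), Dnm1 (8.89 ± 0.89) and Elavl4 (8.48 ± 0.40). Without liver control 1 these partners stood at 0.89, 0.36 and 0.29, so that Eno1 and Dnm2 changed sign. The counts of these 3 genes in liver were highest in liver control 1, at 28, 0 and 0 for Eno2, 32, 0 and 2 for Dnm1 and 3, 0 and 1 for Elavl4, and Eno2 was at least 1348-fold higher in brain than in liver controls 2 and 3. With library totals these 3 partners were higher in brain, Eno1 and Dnm2 by 1.13 and 1.01 with a change of sign and Elavl1 by 1.30. In 5 pairs, Slc1a2/Slc1a1, Pfkp/Pfkl, Kif5a/Kif5b, Camk2a/Camk2g and Mt3/Mt1, both members were higher in brain, the partners assigned to liver by 7.90 ± 0.45, 1.43 ± 0.35, 2.33 ± 0.27, 3.35 ± 0.21 and 3.77 ± 0.27. Both members of Cox7a2/Cox7a1 were higher in liver. Of the other genes assigned to brain, the sterol synthesis enzyme Hmgcs1 was higher in liver (-1.75 ± 0.23) and Mat2a was not called (0.19 ± 0.18). The glutamate transporter Slc1a2 held 95.9 ± 0.971% in brain and 99.8 ± 0.173% in liver, and Pfkp held 44.5 ± 2.12% in brain. With library totals Cox7a1 (-0.58), Cox7a2 (-0.89) and Eef1a1 (-0.83) were among the pair members no longer called in liver. On that scale 15 pairs had both members called in opposite directions. The liver share of several neuronal partners was highest in liver control 1. Camk2a held 9.46 ± 15.9% of Camk2a plus Camk2g in the 3 liver libraries and 0.292% as the mean of liver controls 2 and 3. Kif5a held 15.2 ± 14.4% and 6.88% of Kif5a plus Kif5b.

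**Figure D5:**
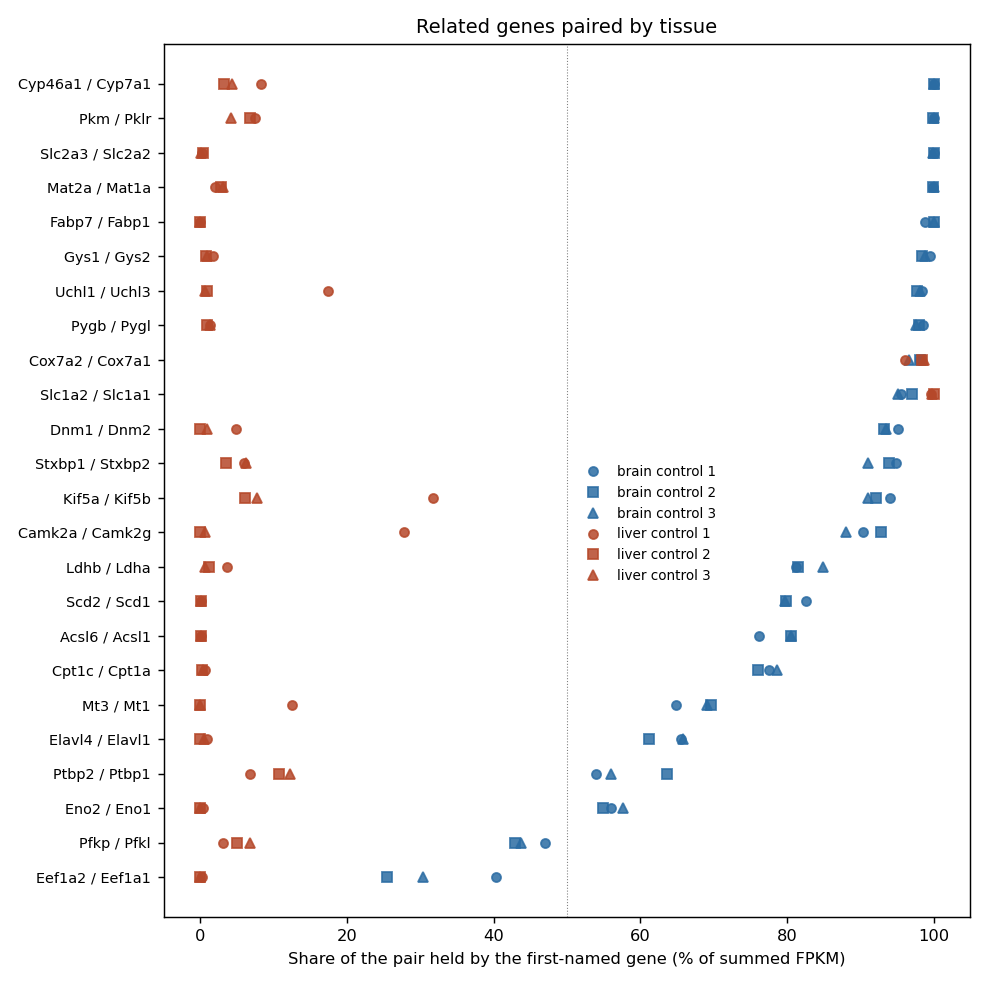
Share (%) of the summed FPKM of 24 of the 30 gene pairs held by the first-named gene in each library, blue for brain and red for liver, with the symbols of replicates 1, 2 and 3. Most pairs run from near 0 in liver to over 50% in brain. Eef1a2 and Pfkp stay under 50% in brain, and Slc1a2 and Cox7a2 hold over 90% in both tissues.

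Metallothioneins, which bind zinc and copper, were higher in brain: Mt1 at 88.0, 111 and 83.7 FPKM in brain and 9.45, 5.45 and 5.68 in liver (3.77 ± 0.27), Mt2 at 99.9, 142 and 113 FPKM in brain and 5.62, 5.67 and 4.99 in liver (4.44 ± 0.23) and the neural Mt3 at 162, 254 and 187 FPKM in brain and 1.36, 0 and 0 in liver. Mt3 was found in liver control 1 alone among the liver libraries and was at least 574-fold higher in brain than in the other 2. Of 17 tested metal and iron genes, 6 were higher in brain, 9 in liver and 2 not called. The iron hormone Hamp had 0 counts in brain and was at least 7519-fold higher in liver, and the ferritin light chain Ftl1 differed by -4.89 ± 0.32, while the heavy chain Fth1 was not called (-0.65 ± 0.28).

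Few genes could be shown to lie at a similar level in both tissues. The rule needs a narrow interval, so the number depends on the spread between libraries. It does not estimate how many genes were alike. A 95% interval of the log2 fold change within 0.5 of 0 in either direction was found for 237 genes (1.56%). The most abundant were Rab2a of vesicle transport (0.06 ± 0.18), Ccni (0.03 ± 0.18), Morf4l2 (0.00 ± 0.19) and Pfdn2, a chaperone subunit (0.08 ± 0.17). That count depended on single libraries: it was 460 without liver control 1, 91 and 85 without liver controls 2 and 3, 31, 58 and 17 without brain controls 1, 2 and 3, and 374 with the replicate number in the model. With library totals these 4 genes were called in brain (1.10 to 1.18). Of 20 reference genes, 10 were higher in liver, 1 in brain and 9 not called (median -0.96). Of 20 proteasome genes, 17 were higher in liver (median -1.58), and of 29 respiratory chain genes, 22 were higher in liver and Cox4i2 alone in brain (3.05 ± 0.60) (median -1.40). These 3 medians were 0.16, -0.49 and -0.30 with library totals, where 2, 1 and 3 members were higher in liver, and on that scale the reference genes changed direction. Actb (-0.25 ± 0.22), Hprt (-0.35 ± 0.20) and Tbp (-0.01 ± 0.19), genes often used as references, were not called, although Tbp was higher in brain with library totals (1.09).

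The last list holds 34 acute phase, cytokine, receptor and barrier genes, some of them mediators that the study named and others added here as related genes. Of these, 29 passed the filter, 17 higher in liver, 4 in brain and 8 not called. The acute phase genes Orm1, Orm2 and Orm3 had 0 counts in brain and were at least 8684-fold, 101-fold and 59.3-fold higher in liver. Orm1 stood at 1609, 1790 and 2034 FPKM in liver and Orm2 at 27.5, 17.7 and 18.1 FPKM. Since these copies are similar, reads may be split between them. Saa1 (-10.26 ± 0.52), Saa2 (-8.82 ± 0.52), Saa3 (-8.85 ± 0.66) and Crp (-14.53 ± 0.47), further acute phase proteins, were higher in liver, and Saa4 and Apcs had 0 counts in brain and were at least 2780-fold and 1113-fold higher in liver. Tspo of the outer mitochondrial membrane differed by -4.18 ± 0.21, the interferon regulator Irf7 by -3.97 ± 0.22, the dioxin receptor Ahr by -3.44 ± 0.22 and Lcn2 by -2.83 ± 0.53.

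Cytokine genes of the same list had low levels. Il1b had counts of 8, 3 and 6 in brain and 19, 37 and 156 in liver and was higher in liver (-4.85 ± 0.91). Since liver control 3 was highest, the size of this Il1b fold rests largely on that library. Its receptor Il1r1 (-2.89 ± 0.23), the interleukin 6 receptor Il6ra (-1.69 ± 0.28) and the sensor Nod1 (-1.75 ± 0.23) were higher in liver. With library totals Il6ra and Nod1 were not called (-0.58 and -0.64). The brain-side members were the astrocyte protein S100b at 75.0, 143 and 135 FPKM in brain and 1.25, 0 and 0.18 in liver (7.83 ± 0.68), the alarmin Il33 (4.55 ± 0.28), the neurotrophin receptor Ntrk2 (5.22 ± 0.38) and its ligand Bdnf at 3.05, 3.79 and 2.90 FPKM in brain and 0.898, 0.703 and 0.73 in liver (2.06 ± 0.21). Without liver control 1 Tlr4, a sensor of bacterial lipid, was higher in liver (-1.18), and with library totals Il17ra (1.02), Cldn5 and Nod2 (1.83) were higher in brain. At TMM scale Nr3c1, the glucocorticoid receptor, Il6st, Cldn5, Pecam1, Il17ra, Tlr4 and Nod2 were among the members not called. Il6, Il1rl1, Ager, Ccl5 and Trem1 did not pass the filter, with at most 18 counts in a library.

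The same comparison was made in the 6 libraries of heat stress mice, which share no sample with the controls. There 5409 genes were higher in brain and 4322 in liver of 15296 tested (63.6% called). Of 9635 genes called in controls and tested in heat stress mice, 8797 (91.3%) were called in the same direction, 0 in the opposite direction, and 23 had the opposite sign without a call. Of the members of the brain lists and liver lists called in controls, 242 and 288 were called the same way in heat stress mice and 0 the opposite way.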

How the data were processed

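Poly(A)-selected, stranded RNA-seq libraries of brain and liver were used from 3 control mice per tissue, with the 6 heat stress libraries kept for 1 repeat of the comparison. The deposited values are raw read counts per gene symbol (25239 symbols, 1 column per library, all columns mapped to a sample). Per the labels, the authors ran FastQC 0.11.9, Trimmomatic 0.39, HISAT2 2.2.1 on mm10 and featureCounts of Subread 2.0.1, while the methods of the study also describe Tophat2 and HTSeq. The annotation, the strand setting and the treatment of reads that map to several places were not given in the sources used here, so near-identical genes (the Mup, Serpina1, Calm and Hba families) are uncertain. The column of liver control 2 carries a suffix that was not explained. The authors' tables of heat stress against control (log2 fold changes and p-values, from DESeq2 1.22.2) were not used.

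Counts were filtered with filterByExpr (minimum count 10, minimum total 15), scaled by TMM and tested with edgeR 4.0.16 (glmQLFit, robust, and glmQLFTest, R 4.3.3) on brain and liver controls alone, without the replicate number. P-values were adjusted over all 15213 genes by Benjamini-Hochberg. FPKM used exon lengths of GENCODE M21, matched for 24366 symbols. In counts simulated from the tissue means of this comparison over 15213 genes, 6472 of 6529 genes with means over 4-fold apart were recovered, with 24 calls among genes under 0.5 apart on the log2 scale. With 1 mean for both tissues, 185 of 200 genes changed by 4-fold were recovered, with 14 false calls. DESeq2 1.42.0 with limma 3.58.1 loaded, Python 3.11.15, pandas 2.3.3, numpy 2.4.6, scipy 1.17.1 and matplotlib 3.10.9 served for alternatives, tables and plots.

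The labels give the same replicate numbers in both tissues. Deviations from the tissue means correlated at 0.448, 0.471 and 0.166 for equal numbers over 8389 genes, and at -0.479 to 0.041 for unequal numbers. Such deviations cancel within a tissue, so positive values at equal numbers go with negative ones elsewhere. These correlations do not establish that a number marks a single mouse. The reported fit left the number out. With it in the model, 5582 genes were higher in brain and 4183 in liver. Named genes are the 10 most abundant called genes per tissue, the 3 most abundant tested members of each of 41 lists and any member on the other side, 30 isozyme pairs, the 10 most abundant genes of similar level, the members of the acute phase and cytokine list and the genes most moved by liver control 1. Further list members are given as examples of a function and were picked with their values seen. The members and lists were chosen with earlier results of these data known. A few genes and gene pairs are not reported here.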

Additional observations from a re-analysis of the deposited data

How the results depend on the processing

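Over all tested genes, more were higher in brain than in liver under each alternative scaling, filter and test that was run, but the numbers depended on scaling. The reference, proteasome and respiratory chain lists, given below, did not keep their excess in liver with library totals. With library totals alone, 8449 genes were higher in brain and 2344 in liver, and in heat stress mice 8581 and 2303. A log2 fold change of 2 in place of 1 left 2464 genes higher in liver. Leaving out 1 library at a time gave 5658 to 6053 genes higher in brain and 4130 to 4356 higher in liver, 234 to 241 members of brain lists in brain, 280 to 282 members of liver lists in liver, 17 isozyme pairs and a plasma protein share of 13.8 to 16.6% in liver, and in heat stress mice 5494 to 5877 and 4153 to 4489 genes. In the reference, proteasome and respiratory chain lists, 2 members were higher in brain (6 with library totals, 1 with a mean count of 50 or more, 2 in each omission) and 47 in liver (6 with library totals, 6 with a log2 fold change of 2, 44 to 50 over omissions). The number of genes shown to lie at a similar level was 17 to 460 over omissions and 374 with the replicate block. The block also ended the calls of Ankrd23, Cbln3 and Mylpf and changed no other named call. With library totals the median share of the brain level was 0.364% in liver control 1, 0.0216% in liver control 2 and 0.0578% in liver control 3, chosen after seeing the data, as was leaving out the muscle list and Rn45s, which moved no count by over 1.5 times.

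Of 4526 results for the 255 genes that the naming rules gave, 4332 kept their call or stayed uncalled, 163 lost and 22 gained a call, and 9 changed sign with a call on at least 1 side. Among the 4332, 56 changed sign between values that were not called. Acta1 changed to 4.48 without liver control 1, its omissions ranging from -3.59 to 4.48. With library totals Cox5b (0.066), Dnm2 (1.01), Eno1 (1.13), Fkbp8 (0.029), Il17ra (1.02), Mal2 (1.04), Nars (1.07) and Sdf4 (1.04) changed sign, since that scale moves the median of all genes to 1.30, as did Tbp (1.09) and C1qc (1.03), examples outside those 255. Mitochondrially encoded genes were not left out of the totals as planned, because the table lists none of those in the list.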

Other observations

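Pancreatic transcripts were seen in part of the liver libraries, with 26, 62 and 0 counts of Ctrb1, 9, 50 and 0 of Cpa1 and 30, 72 and 4 of Cela2a in liver controls 1, 2 and 3. The noncoding RNA H19 had 176, 2 and 4 counts in the liver libraries. The ribosomal precursor Rn45s took 1.62, 6.07 and 2.69% of the brain counts and 2.46, 1.23 and 0.739% of the liver counts, so brain control 2 was the highest of the 6. Markers of B cells, Cd79a and Cd79b, were higher in liver, with log2 fold changes of -4.18 and -4.30, while Cd4 was higher in brain (1.53). Lists of cells outside both tissues had few tested members, of which the 1 tested red blood cell gene (of 8 listed) was higher in liver, 2 of 4 tested adipose and skin genes (of 9) in liver and 1 in brain, 1 of 2 tested exocrine pancreas genes (of 10) in liver, and 5 of 6 tested lymphocyte and plasma cell genes (of 18) in liver and 1 in brain. Of 30 skeletal muscle genes 15 were tested, 3 higher in liver and 1 in brain, and without liver control 1 there were 2 and 11. These values were read after the data were seen.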
